A study of Mus musculus with 12 samples.

Results

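The 10 genes described here encode receptors for agonists that make smooth muscle contract: Oxtr for oxytocin, Avpr1a for vasopressin, Ednra and Ednrb for endothelins, Agtr1a for angiotensin II, Chrm2 and Chrm3 for acetylcholine, Adra1a for noradrenaline, Hrh1 for histamine and Htr2a for serotonin. They were taken by gene symbol, by a rule that uses no measured value, although earlier results of these data were known when the set was drawn up, and all 10 were found among the 24964 genes of the count table. RNA of uterine tissue from pregnant mice at 13.5 days post coitum was sequenced in 12 libraries, 4 in each of 3 groups. Controls had the genotype Myh11Cre. Mice overexpressing isoform A of the progesterone receptor in the myometrium (PGR-A OE) were Myh11Cre; LSLPGRA/+, and those overexpressing isoform B (PGR-B OE) were Myh11Cre; LSLPGRB/+. Every group therefore carried the Cre driver, which follows the smooth muscle myosin gene Myh11, a gene that vascular as well as uterine smooth muscle expresses. Ages, and whether the replicates came from separate animals, are not given in the labels. A p-value here thus sets a group difference against the spread of samples within groups, which may be partly technical.

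Most of these receptors couple to the G protein Gq. Bound by agonist, they activate phospholipase C, which makes inositol trisphosphate and diacylglycerol. Calcium then leaves the sarcoplasmic reticulum and, through calmodulin, switches on myosin light chain kinase. Chrm2 is the exception, since it couples to Gi and lowers cyclic AMP, and Ednrb is also known from endothelium, where it promotes relaxation. In the uterus, progesterone keeps the muscle quiet through pregnancy, and oxytocin receptor is known to climb towards term. The series title ties PGR-B to the phospholipase C pathway and to lower contractility, and the comparisons below ask whether transcripts of the receptors that feed this pathway differed between the groups.

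Libraries held 31872534 to 33078483 counts. Pgr, the overexpressed gene, lay at 106.1 to 142.3 CPM (a gene's counts relative to the library total, after TMM scaling of the totals) in control, 165.7 to 254.7 in PGR-A OE and 187.8 to 248.3 in PGR-B OE. Both overexpression groups thus lay above every control library. By edgeR, described below, its log2 changes were 0.72 and 0.88 (adjusted p = 0.0416 and 0.0196). With 1 library left out, the adjusted p by edgeR reached 0.127 and 0.0784. Counts by gene symbol do not separate the isoforms, and Pgr differed by 0.16 between the overexpression groups (adjusted p = 0.82 by edgeR). All 20 smooth muscle markers examined had counts in every library, and so did the 11 epithelial, 10 fibroblast and 14 endothelial markers, which makes each value an average over a mixed tissue. In such bulk samples, fewer cells of a type and less RNA per cell cannot be told apart. PGR-A OE replicate 4 stood apart: its smooth muscle markers summed to 39830 CPM, against 20860 to 32560 in the other 11 libraries, and its decidual and trophoblast markers to 368.7 CPM, the lowest of all. Control replicate 4 stood apart too, with a decidual and trophoblast sum of 5557 CPM, where no other library exceeded 1684. A first principal component with 23% of the variance placed these libraries at 62.4 and -31, and the other 10 between -8.87 and 7.58.

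None of the 10 receptor genes passed the threshold in any of the 3 comparisons, an adjusted p of 0.05 by edgeR (quasi-likelihood F-test, p-values adjusted over 15561 genes by the Benjamini-Hochberg method). All 10 passed the filter on low counts and were tested. Of all genes tested, 0.655% passed in PGR-A OE against control, 0.308% passed in PGR-B OE against control and 0.116% passed between the overexpression groups, so a count of 0 in 10 genes is near the background. At an unadjusted p under 0.05 there were 2 receptor genes in each comparison, Adra1a and Ednra, Chrm2 and Adra1a, and Avpr1a and Ednra in turn, where 15.4%, 9.28% and 8.04% of all genes stood at that level. The 4 and 4 libraries did not overlap for 0, 1 (Chrm2) and 1 (Avpr1a) of the receptor genes, against 10.6%, 5.67% and 3.85% of all genes. DESeq2 called 1 receptor gene, Adra1a in PGR-A OE, and gave no adjusted p for Chrm2 in that comparison. The DESeq2 threshold was passed by 571, 217 and 124 genes of the whole data in the 3 comparisons, where edgeR had 102, 48 and 18. Shares of all genes past a p threshold, here and below, are from edgeR, and so are no background for DESeq2 calls. Limma voom called 0 receptor genes, with 2, 4 and 2 at an unadjusted p under 0.05. That level was reached by 2324, 1403 and 1206 genes in its own fits. The median log2 change of the 10 genes was 0.11 in PGR-A OE and -0.12 in PGR-B OE against control, and -0.34 between PGR-B OE and PGR-A OE, beside medians over all genes of 0.00051, -0.0052 and 0.0045. The comparisons with control share the 4 control libraries.

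**Figure D1:**
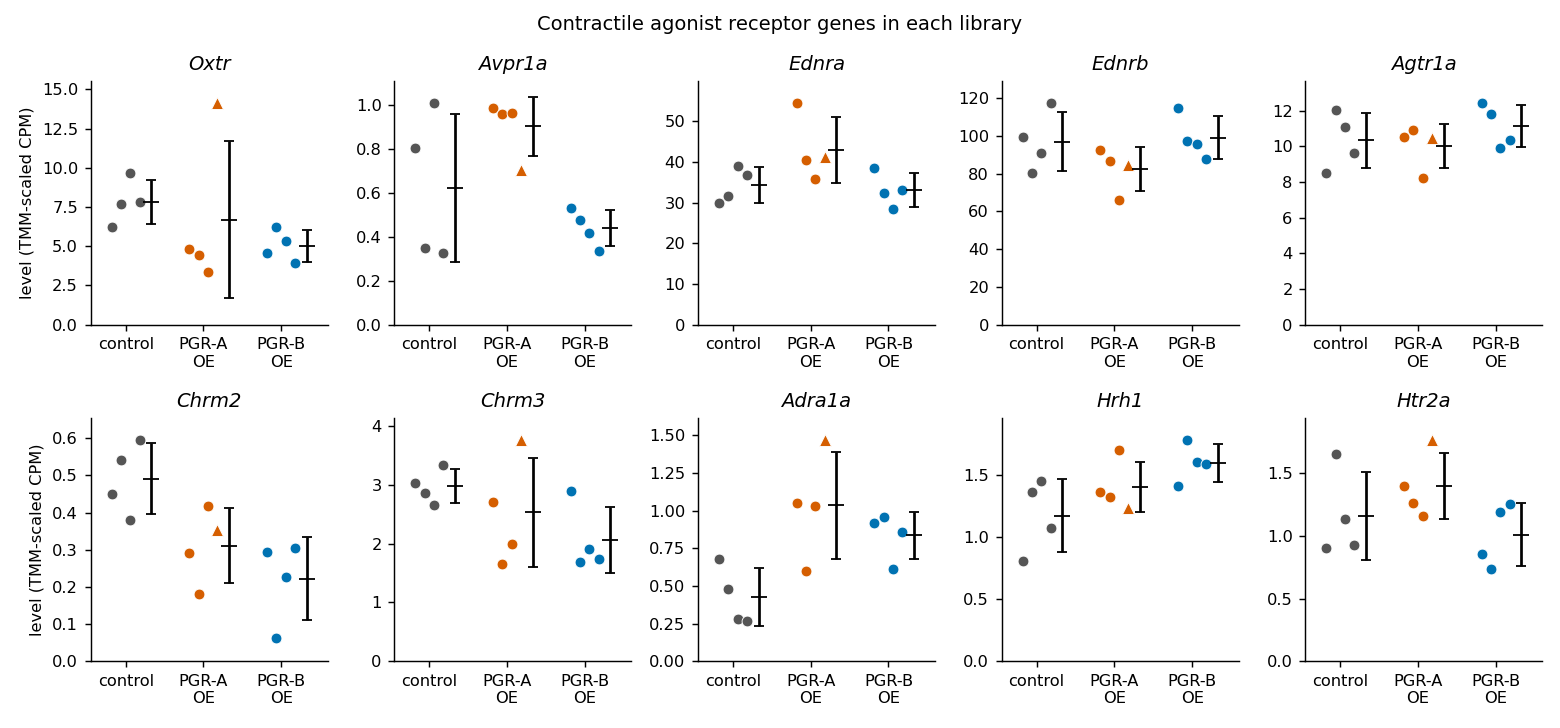
Level of each receptor gene in TMM-scaled CPM (vertical axis, from 0) in the 12 libraries by group. Points are libraries, the triangle is PGR-A OE replicate 4, and bars give the mean ± SD of 4 libraries; Oxtr in PGR-A OE replicate 4, at 14.1 CPM, lies above the other 11 libraries.

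The RefSeq promoter table (build GRCm38.p6) held windows for 8 of the 10 genes, 11 windows in all; it had no entry for Agtr1a or Adra1a. The windows of 5 genes are shown because the overexpressed progesterone receptor binds DNA: the oxytocin receptor, its close relative the vasopressin receptor, the pair of endothelin receptors whose levels are set against each other below, and the serotonin receptor, whose window holds the hexamer searched for. Each is written 5′ to 3′ on the gene's strand and reaches up to 250 bases upstream of the RefSeq start, without bases that any GENCODE exon covers. Capitals mark TGTTCT or its reverse complement AGAACA, the core hexamer of the element that progesterone and glucocorticoid receptors share, and TATAAA or its reverse complement TTTATA.
Oxtr (chr6:112489944-112490075, minus strand, 132 bases): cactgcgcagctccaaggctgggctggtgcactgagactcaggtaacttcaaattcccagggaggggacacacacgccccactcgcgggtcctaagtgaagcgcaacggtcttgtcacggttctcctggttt
Avpr1a (chr10:122448249-122448498, plus strand, 250 bases): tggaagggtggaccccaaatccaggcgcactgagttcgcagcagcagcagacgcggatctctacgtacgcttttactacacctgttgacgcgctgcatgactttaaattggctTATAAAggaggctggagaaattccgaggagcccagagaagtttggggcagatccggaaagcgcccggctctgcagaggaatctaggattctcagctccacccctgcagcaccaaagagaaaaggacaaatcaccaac
Ednra (chr8:77724465-77724702, minus strand, 238 bases): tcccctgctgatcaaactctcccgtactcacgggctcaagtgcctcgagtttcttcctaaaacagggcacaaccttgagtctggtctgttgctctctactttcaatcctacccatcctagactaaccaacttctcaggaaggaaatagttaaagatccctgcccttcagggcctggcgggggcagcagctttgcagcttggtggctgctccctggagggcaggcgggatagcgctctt
Ednrb (chr14:103843702-103843951, minus strand, 250 bases): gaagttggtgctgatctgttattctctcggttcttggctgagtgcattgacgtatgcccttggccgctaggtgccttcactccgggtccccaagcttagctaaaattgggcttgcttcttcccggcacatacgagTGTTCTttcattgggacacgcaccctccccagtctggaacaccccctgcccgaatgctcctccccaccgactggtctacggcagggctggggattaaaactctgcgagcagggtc
Htr2a (chr14:74640624-74640839, plus strand, 216 bases): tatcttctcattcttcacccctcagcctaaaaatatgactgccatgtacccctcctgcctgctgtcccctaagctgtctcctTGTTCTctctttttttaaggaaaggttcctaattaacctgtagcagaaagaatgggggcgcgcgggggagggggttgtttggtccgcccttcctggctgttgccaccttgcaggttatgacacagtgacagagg
The hexamer was found 1 time each in the Ednrb and Htr2a windows, and in 3 of the 11 windows in all, those of Ednrb, Htr2a and 1 of the 4 of Hrh1; of all 32851 windows of 250 bases, 16.1% held it on either strand. TATAAA stood 137 bases before the start of Avpr1a, a motif that 12.4% of all windows held. The Ednrb window lies within the GENCODE span of that gene but in none of its exons. These matches describe letters in the windows and say nothing about binding.

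Oxtr, the oxytocin receptor gene (chromosome 6, 112473683 to 112489943, minus strand, GRCm38), was lower in 6 of the 8 overexpression libraries than in any control library, and by far the highest in 1 of them. The 4 control libraries held 6.22, 7.69, 9.66 and 7.80 CPM. The PGR-A OE libraries held 4.83, 4.42, 3.37 and 14.1 CPM, replicates 1 to 4 in turn. The PGR-B OE libraries held 4.57, 6.25, 5.35 and 3.92 CPM. PGR-A OE replicates 1 to 3 thus lay below all controls and replicate 4 above them, while in PGR-B OE only replicate 2 reached the lowest control. Raw counts ran from 105 to 481, where counting alone gives a spread of 9.76% at the lowest.

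In PGR-B OE against control the log2 change of Oxtr was -0.64 (SE 0.375, 95% interval -1.46 to 0.17), with an adjusted p of 0.64 by edgeR and p = 0.0571 by an exact two-sided permutation test, where 0.0286 is the smallest p that 4 against 4 libraries allow. In PGR-A OE against control it was -0.23 (SE 0.372, interval -1.04 to 0.58, adjusted p = 0.81 by edgeR). That value depended on single libraries: without PGR-A OE replicate 4 it was -0.89 (adjusted p = 0.0874 by edgeR), and without replicates 1, 2 and 3 of PGR-A OE in turn it was -0.10, -0.074 and -0.0081 (adjusted p = 0.93, 0.95 and 0.99), so that it passed in none of these fits. The difference between PGR-B OE and PGR-A OE turned from -0.41 to 0.25 without the same library, and passed in neither fit (adjusted p = 0.83 and 0.82). Set against the 20 smooth muscle markers, Oxtr came to 2.87 to 3.50 per 10000 CPM of markers in control, 1.03 to 1.73 in PGR-A OE replicates 1 to 3, 3.55 in PGR-A OE replicate 4 and 1.46 to 2.42 in PGR-B OE. On this scale PGR-A OE replicate 4 was still the highest of the 12 libraries, just above the highest control. All 4 PGR-B OE libraries lay below every control. The ratio was chosen after the values were seen and is given without a test. PGR-A OE replicate 4 also had the highest epithelial marker sum (2900 CPM, against 1469 to 2735 in the other 11). The part of tissue composition in its Oxtr value was not tested.

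**Figure D2:**
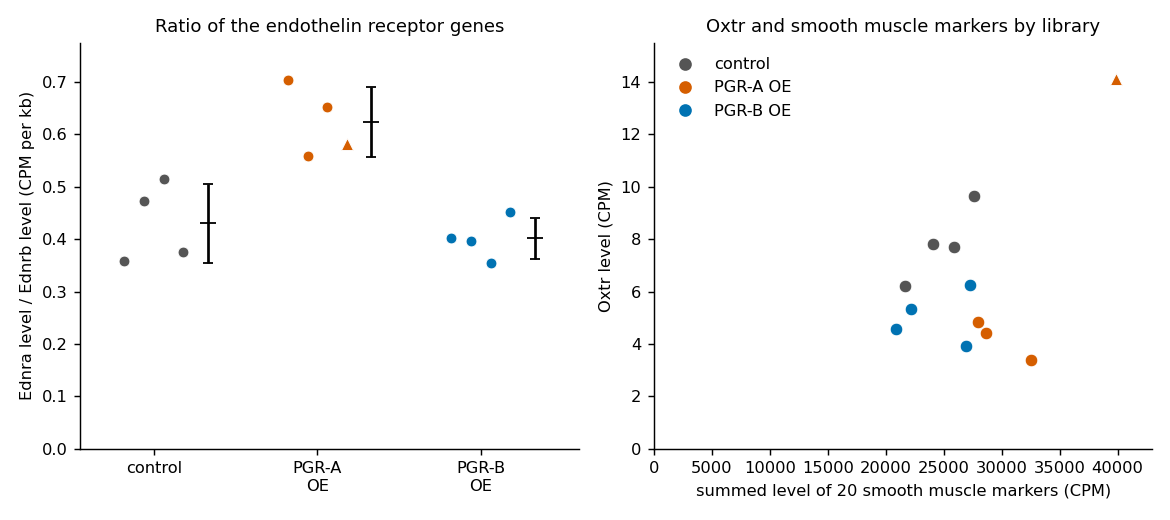
Left, ratio of Ednra to Ednrb, both in CPM per kb, in each library, with mean ± SD of 4; right, Oxtr in CPM against the summed CPM of 20 smooth muscle markers, 1 point per library (triangle, PGR-A OE replicate 4). The 4 PGR-A OE ratios, 0.56 to 0.70, lie above the 8 others, and PGR-A OE replicate 4 is highest on both axes of the right panel.

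Of 13309 other named genes with a mean of at least 1 CPM, those whose log2 CPM followed Oxtr most closely over the 12 libraries were Peli2 (Pearson's r 0.942), Apc (0.910) and Nr4a2 (0.895), picked as the highest and so given without a p. Peli2, which encodes a ubiquitin ligase of innate immune signalling, was at 39.4 ± 3.96 CPM in control, 37.7 ± 15.0 in PGR-A OE, with 60.1 in replicate 4, and 33.6 ± 0.854 in PGR-B OE (SD, n = 4). Over the 11 libraries without PGR-A OE replicate 4 the closest were Apc (0.942), Peli2 (0.916) and Pias2 (0.905). Apc and Peli2 were thus in both sets, whereas Pias2 had an r of 0.261 once that library was included. Without the 2 libraries farthest from the median of Oxtr, r over the remaining 10 of the 12 was 0.889 for Peli2, 0.920 for Apc and 0.732 for Nr4a2. Both genes of a pair are read from the same library, with its own depth and tissue composition. The part of these in the correlations was not tested.

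Avpr1a (chromosome 10, 122448499 to 122453452, plus strand), whose product also binds oxytocin with lower affinity, was the 1 receptor gene whose PGR-B OE and PGR-A OE libraries did not overlap. PGR-A OE libraries held 0.990, 0.962, 0.963 and 0.705 CPM, and PGR-B OE libraries 0.531, 0.479, 0.419 and 0.337 CPM. Controls were split, with 0.806 and 1.01 CPM in replicates 1 and 3 and 0.350 and 0.327 CPM in replicates 2 and 4, so that they covered the range of both other groups. The log2 difference of PGR-B OE from PGR-A OE was -1.03 (SE 0.351, 95% interval -1.79 to -0.27), which did not pass over all genes (adjusted p = 0.483 by edgeR; p = 0.0286 by the exact two-sided permutation test, the smallest possible). In that comparison 3.85% of all genes tested showed no overlap, against 1 of 10 receptor genes. Against control the log2 change was 0.54 in PGR-A OE (interval -0.20 to 1.28) and -0.49 in PGR-B OE (interval -1.27 to 0.29). These levels rest on 11 to 34 counts per library, where counting alone gives a spread of 30.2% at the lowest.

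The pair of endothelin receptor genes, both abundant, stood differently in PGR-A OE. Ednra (chromosome 8, 77663031 to 77724464, minus strand), the contractile receptor of muscle, held 29.8, 31.7, 39.1 and 36.8 CPM in control, 54.5, 40.4, 35.9 and 41.2 in PGR-A OE and 38.6, 32.4, 28.5 and 33.2 in PGR-B OE. In PGR-A OE 3 of the 4 libraries lay above all controls. The log2 change was 0.32 in PGR-A OE (SE 0.136, interval 0.029 to 0.618, adjusted p = 0.28) and -0.052 in PGR-B OE (interval -0.347 to 0.243, adjusted p = 0.94), and PGR-B OE differed from PGR-A OE by -0.38 (interval -0.670 to -0.081, adjusted p = 0.52), by edgeR. Smooth muscle and vascular mural markers were also higher in PGR-A OE against control, with 19 of 20 and 8 of 10 members positive and medians of 0.31 and 0.27. Endothelial (14 of 14, median 0.18) and fibroblast markers (7 of 10, median 0.30) were higher too. Of epithelial markers 4 of 11 were positive (median -0.13), and medians of the remaining marker sets lay between 0.00765 and 0.0695. By edgeR 1 vascular mural and 1 fibroblast marker passed the threshold in this comparison, and 0 in each other set. Fibroblast sums were 36800 to 38440 CPM in control, 42120 to 52820 in PGR-A OE and 43320 to 53530 in PGR-B OE. The part of these cell types in the Ednra values was not tested.

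Ednrb (chromosome 14, 103814625 to 103844402, minus strand) held 99.4, 80.1, 90.9 and 117.3 CPM in control, 92.5, 86.5, 65.8 and 84.7 in PGR-A OE and 114.7, 97.5, 95.9 and 87.8 in PGR-B OE. The groups overlapped, with replicate 3 of PGR-A OE the lowest of all libraries. Its log2 change was -0.23 in PGR-A OE (SE 0.131, interval -0.520 to 0.051) and 0.030 in PGR-B OE (interval -0.255 to 0.315), and neither passed (adjusted p = 0.42 and 0.97 by edgeR). Per kilobase, the ratio of Ednra to Ednrb within a library was 0.36 to 0.51 in control, 0.56 to 0.70 in PGR-A OE and 0.35 to 0.45 in PGR-B OE. With the union of GENCODE exons as the length, which is longer for Ednra (5476 bases, against 3643 in the deposited table), the ratios were 0.23 to 0.34, 0.36 to 0.46 and 0.23 to 0.29. Each PGR-A OE library thus exceeded the 8 others in this ratio. Another length multiplies the ratio of every library by the same factor, so it changes the size and cannot change this order. The ratio was formed after the values were seen and carries no test.

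Agtr1a, the type 1a angiotensin receptor gene (chromosome 13, 30336441 to 30382867, plus strand), varied least of the 10, by 1.51-fold between its lowest and highest library. Control libraries held 8.51 to 12.05 CPM with a mean of 10.3 ± 1.56 (SD, n = 4), PGR-A OE libraries 10.5, 10.9, 8.22 and 10.5 CPM, and PGR-B OE libraries 12.4, 11.8, 9.92 and 10.4 CPM. The groups overlapped throughout. The 95% interval of its log2 change ran from -0.328 to 0.245 in PGR-A OE and from -0.176 to 0.396 in PGR-B OE against control.

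The muscarinic receptor genes were both lower on average in the overexpression groups, without a call. Chrm2 (chromosome 6, 36388084 to 36528414, plus strand) held 0.451, 0.540, 0.379 and 0.595 CPM in control, 0.291, 0.180, 0.417 and 0.352 in PGR-A OE and 0.295, 0.0638, 0.226 and 0.306 in PGR-B OE. All 4 PGR-B OE libraries and 3 of 4 PGR-A OE libraries lay below every control. In PGR-B OE the log2 change was -1.12 (SE 0.392, interval -1.97 to -0.27, adjusted p = 0.41 by edgeR, exact permutation p = 0.0286), and 5.67% of all genes tested showed no overlap in that comparison, against 1 of the 10 receptor genes. In PGR-A OE it was -0.66 (interval -1.48 to 0.16, adjusted p = 0.42). Chrm2 is the least abundant of the 10 in CPM, with 2 to 20 counts per library, and its exons overlap those of 9330158H04Rik, on the other strand, over 142 bases, so its counts are uncertain.

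Chrm3 (chromosome 13, 9875486 to 10360847, minus strand), which carries the contractile response to acetylcholine in much smooth muscle, held 3.03, 2.86, 2.65 and 3.33 CPM in control, 2.71, 1.65, 1.99 and 3.76 in PGR-A OE and 2.89, 1.69, 1.90 and 1.74 in PGR-B OE. Controls were tight, while PGR-A OE replicate 4 and PGR-B OE replicate 1 stood high in their groups. The log2 change was -0.53 in PGR-B OE (SE 0.257, interval -1.09 to 0.03, adjusted p = 0.56 by edgeR) and -0.23 in PGR-A OE (interval -0.784 to 0.322, adjusted p = 0.71).

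Adra1a, the alpha-1A adrenoceptor gene (chromosome 14, 66635251 to 66771168, plus strand), had the largest log2 change among the receptor genes in PGR-A OE. Control libraries held 0.677, 0.477, 0.284 and 0.268 CPM. PGR-A OE libraries held 1.05, 0.601, 1.03 and 1.47 CPM, and PGR-B OE libraries 0.914, 0.957, 0.612 and 0.857 CPM. In each overexpression group 3 of 4 libraries lay above all controls, and the fourth within their range. The log2 change was 1.28 in PGR-A OE (SE 0.344, interval 0.53 to 2.03, a 2.43-fold difference) with an adjusted p of 0.12 by edgeR, and DESeq2 called it (adjusted p = 0.0341). In PGR-B OE it was 0.97 (SE 0.348, interval 0.21 to 1.72, adjusted p = 0.42 by edgeR), and the groups did not differ detectably from each other (-0.31, interval -1.02 to 0.40). By the exact two-sided permutation test p was 0.0571 in both comparisons with control. Without 1 library at a time the log2 change in PGR-A OE stayed between 1.07 and 1.59, with an adjusted p of 0.135 to 0.294 by edgeR. Counts ran from 9 to 50 per library, and both the highest Adra1a value and the highest smooth muscle marker sum belonged to PGR-A OE replicate 4.

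**Figure D3:**
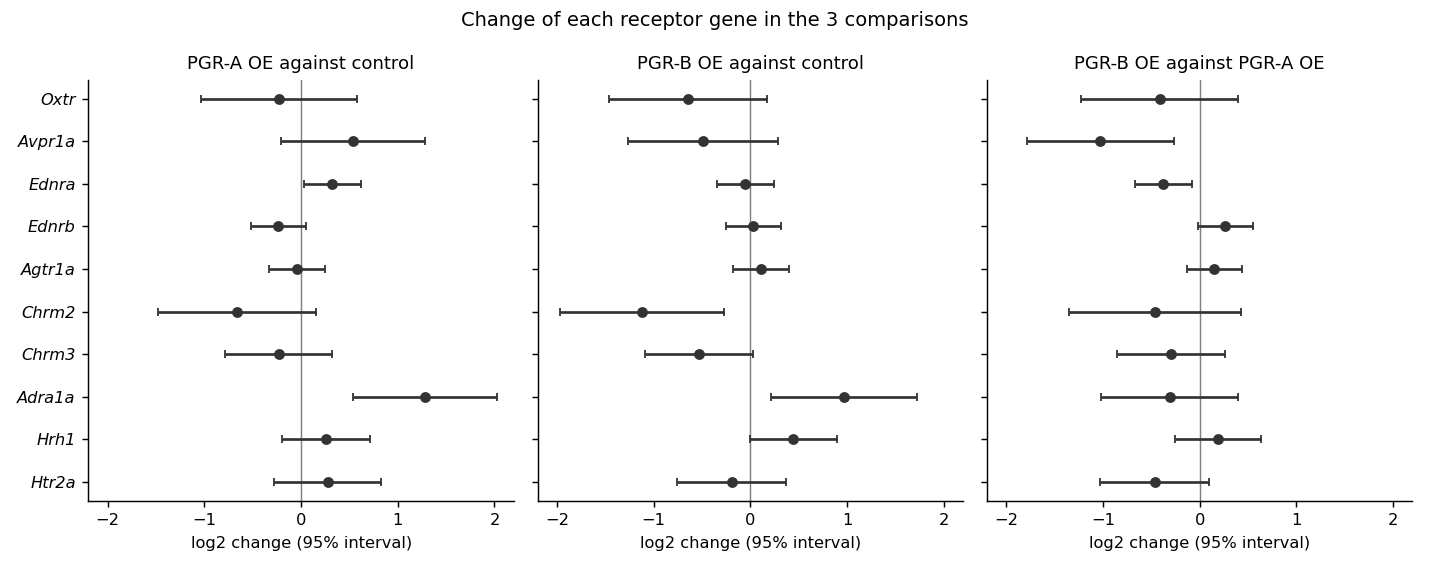
Log2 change of each receptor gene (horizontal axis) with its 95% interval from edgeR's fit of all 12 libraries, for the 3 comparisons. The interval leaves out 0 for 2 genes in each panel, before adjustment over all genes; Adra1a in PGR-A OE lies farthest from 0, at 1.28.

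Hrh1, the histamine H1 receptor gene (chromosome 6, 114397936 to 114483296, plus strand), held 0.806, 1.37, 1.45 and 1.07 CPM in control, 1.37, 1.32, 1.70 and 1.23 in PGR-A OE and 1.42, 1.79, 1.61 and 1.59 in PGR-B OE. Above all controls lay 3 PGR-B OE libraries and 1 PGR-A OE library. The log2 change was 0.45 in PGR-B OE (SE 0.208, interval -0.0061 to 0.897, adjusted p = 0.55 by edgeR) and 0.26 in PGR-A OE (interval -0.194 to 0.712, adjusted p = 0.58). Htr2a, the serotonin 2A receptor gene (chromosome 14, 74640840 to 74709494, plus strand), held 0.902 to 1.65 CPM in control, 1.16 to 1.76 in PGR-A OE and 0.734 to 1.25 in PGR-B OE. Its groups overlapped, and the widest difference, of PGR-B OE from PGR-A OE, was -0.47 (interval -1.03 to 0.09, adjusted p = 0.71).

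The order of the receptors by level, in CPM per kilobase of the gene length deposited with the counts, was the same in all 12 libraries for the upper 5 genes. Means over the 12 libraries were 21.3 ± 3.23 for Ednrb, 10.1 ± 1.91 for Ednra, 4.59 ± 0.569 for Agtr1a, 1.42 ± 0.657 for Oxtr and 0.795 ± 0.223 for Chrm3 (SD). The endothelin receptor genes made up most of the summed level of the 10, with Ednrb at 55.4% ± 5.10 and Ednra at 23.5% ± 2.13 in control, 48.7% ± 1.97 and 30.3% ± 2.82 in PGR-A OE, and 57.4% ± 1.72 and 22.97% ± 1.64 in PGR-B OE (SD, n = 4). With the union of GENCODE exons the share of Ednrb was 63.5%, 57.4% and 65.4% and that of Ednra 17.6%, 23.3% and 17.1% in the same groups. By the deposited length Oxtr took 4.28% ± 0.752 in control, 3.67% ± 2.53 in PGR-A OE and 2.79% ± 0.614 in PGR-B OE.

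Below Chrm3 neighbouring genes were not separated in every library by the deposited length. Htr2a (0.404 ± 0.106) exceeded Hrh1 (0.314 ± 0.0614) in 10 of 12 libraries, Hrh1 exceeded Avpr1a (0.246 ± 0.105) in 8, and Avpr1a exceeded Chrm2 (0.168 ± 0.0734) in 9. The lowest pair changed order between groups, with Chrm2 above Adra1a (0.157 ± 0.0714) in 4 of 4 control libraries, 0 of 4 PGR-A OE and 0 of 4 PGR-B OE libraries. The length matters here, since it is 2036 bases for Chrm2 in the deposited table and 6053 in the union of GENCODE exons. With the union Chrm2 was above in 3 control libraries, and still in 0 of the 8 others. With that length Htr2a exceeded Hrh1 in 1 of the 12 libraries instead of 10. Avpr1a then exceeded Chrm2 in all 12 instead of 9, as it did by the longest annotated transcript. By the longest annotated transcript Chrm2 was above Adra1a in 2 control libraries and 0 of the 8 others. The pair rests on 2 to 20 counts of Chrm2 and 9 to 50 of Adra1a per library.

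**Figure D4:**
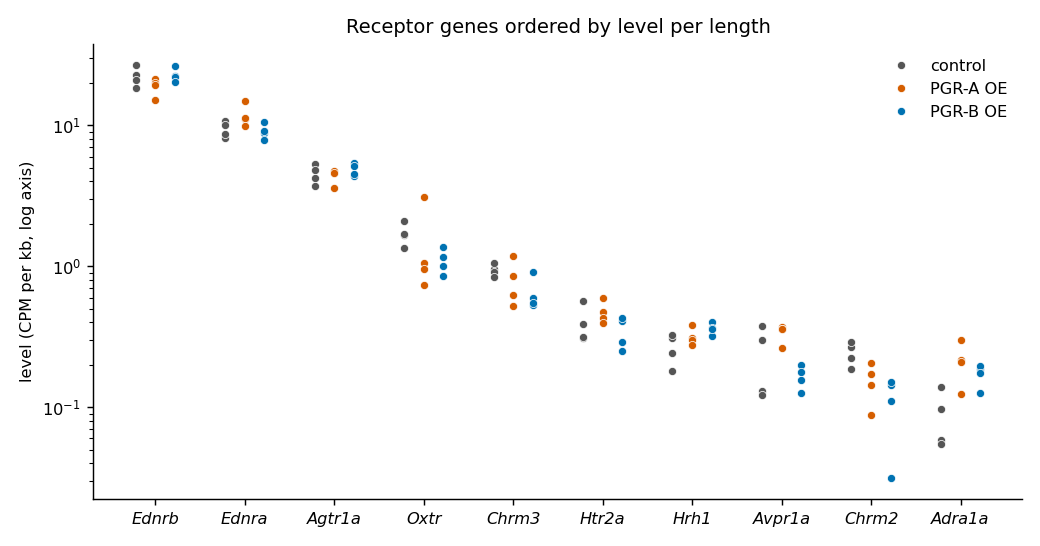
Level of each receptor gene in CPM per kb of deposited gene length (log axis), 1 point per library, coloured by group, with genes ordered by their mean over 12 libraries. Ednrb, Ednra, Agtr1a, Oxtr and Chrm3 keep this order in each library. By this length Chrm2 lies above Adra1a in 4 of 4 control libraries and in 0 of 4 of either overexpression group. These 2 genes rest on 2 to 20 and 9 to 50 counts per library.

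Among 28 genes for the ligands of these receptors and for their synthesis or breakdown, 21 were tested and 1 passed in PGR-A OE against control, by edgeR, where 0.655% of all genes tested did. This was Ace, which encodes the angiotensin-converting enzyme that makes angiotensin II. Ace rose 2.001-fold (log2 change 1.00, SE 0.192, adjusted p = 0.0401), from 59.3, 56.1, 66.8 and 42.1 CPM in control to 123.1, 80.2, 148.1 and 97.4 CPM in PGR-A OE. In PGR-B OE it was at 91.1, 80.4, 113 and 110.9 CPM, a log2 change of 0.82 that did not pass (adjusted p = 0.143 by edgeR; DESeq2 called it). All 8 overexpression libraries lay above every control; 10.6% of all genes showed no overlap in PGR-A OE and 5.67% in PGR-B OE. With each library dropped in turn, the call in PGR-A OE held in 1 of 8 fits, the one without PGR-A OE replicate 2 (adjusted p = 0.0258); in the other 7 the adjusted p ran from 0.0537 to 0.137, and the log2 change stayed between 0.84 and 1.13 over all 8. It was also lost with no filter on low counts (adjusted p = 0.0522) and in a fit of only the 8 libraries compared (adjusted p = 0.0865), and held by DESeq2 and limma voom. DESeq2 also called Tph1 in PGR-A OE (1.08 ± 0.290 against 0.467 ± 0.116 CPM, SD, n = 4). Ace is also known from endothelium, and 14 of 14 endothelial markers were positive in the same comparison, with a median of 0.18 and 0 past the threshold; their part in the Ace values was not tested. An antisense model, Gm11651, overlaps 5.58% of the Ace exons.

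The ligand genes themselves were low in this tissue or did not pass. Oxt had 8 counts over all 12 libraries, Avp 1 and the renin gene Ren1 none. Edn1 was at 7.07 ± 0.687 CPM in control, 7.47 ± 1.68 in PGR-A OE and 7.79 ± 1.40 in PGR-B OE (SD, n = 4). Edn3, the endothelin with a preference for the Ednrb product, ranged from 2.38 to 7.92 CPM in control and from 4.51 to 26.0 in PGR-B OE (log2 change 1.51, adjusted p = 0.38 by edgeR), with overlap. In PGR-B OE against control 0 of 21 passed by edgeR (6 at an unadjusted p under 0.05, a level that 9.28% of all genes reached; DESeq2 1, limma voom 0). The lowest p there after Ace belonged to Tph1, which acts in serotonin synthesis (1.00 ± 0.154 against 0.467 ± 0.116 CPM, adjusted p = 0.157 by edgeR). Ddc, which makes amines, followed (2.67 ± 0.696 against 1.52 ± 0.349 CPM, adjusted p = 0.317 by edgeR). Ddc also had the lowest p between PGR-B OE and PGR-A OE (log2 difference 1.30, adjusted p = 0.112 by edgeR; DESeq2 called it), with 0 of 21 past the threshold, 4 at an unadjusted p under 0.05, beside 8.04% of all genes, and 0 by limma voom. The median log2 change of the list was 0.22 in PGR-A OE and 0.32 in PGR-B OE against control, beside 0.00051 and -0.0052 over all genes.

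Of 30 other receptors for the same ligands, 14 passed the filter on low counts and 0 passed the test in any comparison by edgeR, DESeq2 or limma voom, with 2, 1 and 1 at an unadjusted p under 0.05 by edgeR, a level that 15.4%, 9.28% and 8.04% of all genes reached in the 3 comparisons. Adra1d, a second alpha-1 adrenoceptor, was at 6.76 ± 1.46 CPM in PGR-A OE and 4.23 ± 1.37 in control (log2 change 0.67, adjusted p = 0.21). Agtr2, the type 2 angiotensin receptor, was at 9.0 ± 4.21 CPM in PGR-B OE and 5.12 ± 1.67 in control (0.81, adjusted p = 0.49). Htr2b, a serotonin receptor, was lower, at 1.17 ± 0.615 CPM in PGR-A OE and 2.32 ± 0.987 in control (-0.99, adjusted p = 0.23 by edgeR). In PGR-B OE it was at 1.51 ± 0.187 CPM (-0.63, adjusted p = 0.63 by edgeR). Avpr1b and Htr5a had no count. Of 22 further receptors with contractile actions through Gq, 12 were tested and 0 passed by the 3 tools, with 1, 2 and 0 at an unadjusted p under 0.05 by edgeR (the same 15.4%, 9.28% and 8.04% of all genes). Lpar3, a lysophosphatidic acid receptor, had the lowest p in PGR-A OE (1.20 ± 0.391 against 0.670 ± 0.132 CPM, log2 change 0.83, adjusted p = 0.22), and its libraries did not overlap the controls, as in 10.6% of all genes tested in that comparison. Lpar1, another, had the lowest p in PGR-B OE against control and was lower there (110.7 ± 6.84 against 123.9 ± 6.49 CPM, log2 change -0.16, adjusted p = 0.51 by edgeR).

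Downstream of the receptors, 36 genes of Gq, phospholipase C beta, calcium release and light chain control were all tested and 0 passed by edgeR. At an unadjusted p under 0.05 there were 5 in PGR-A OE and 8 in PGR-B OE relative to control; between the overexpression groups there were 9, of which 7 were lower in PGR-B OE. Of all genes tested, 15.4%, 9.28% and 8.04% were at that level. Of the smooth muscle markers 1 of 20 was positive between PGR-B OE and PGR-A OE, with a median log2 difference of -0.37. Endothelial (1 of 14), vascular mural (2 of 10) and nerve and glia markers (1 of 7) were mostly lower too. Fibroblast (6 of 10), leukocyte (9 of 15), epithelial (8 of 11) and decidual and trophoblast markers (6 of 8) were mostly higher. The part of these cell types in the lower values was not tested. Stim1, the calcium sensor that opens store-operated channels, was at 79.2 ± 10.5 CPM in PGR-B OE and 62.7 ± 2.7 in control (log2 change 0.34, adjusted p = 0.163 by edgeR). It was the 1 gene of the list that DESeq2 called, and limma voom called 0. Prkcb, a protein kinase C, followed (61.1 ± 4.11 against 47.1 ± 6.99 CPM, adjusted p = 0.243). Prkce, another, was lower (23.6 ± 1.15 against 27.8 ± 0.780 CPM, adjusted p = 0.46). Each of these 3 showed no overlap with control, as did 5.67% of all genes. Median log2 changes of the list were 0.067, -0.040 and -0.055 in the 3 comparisons.

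Of 19 genes that desensitise such receptors or dampen their signal, 18 were tested and 0 passed by edgeR or limma voom, with 1, 5 and 1 at an unadjusted p under 0.05 by edgeR, beside 15.4%, 9.28% and 8.04% of all genes. Grk5, a kinase that phosphorylates agonist-bound receptors, was at 14.4 ± 1.27 CPM in control, 17.7 ± 0.991 in PGR-A OE and 18.0 ± 0.815 in PGR-B OE (SD, n = 4). Neither overexpression group overlapped the controls in Grk5, as in 10.6% and 5.67% of all genes. The log2 changes were 0.30 (SE 0.0815, adjusted p = 0.125) and 0.33 (SE 0.0815, adjusted p = 0.169) by edgeR, and DESeq2 called Grk5 in both comparisons. DESeq2 also called Plcl2, an inactive relative of phospholipase C, in PGR-B OE, where it was at 49.2 ± 2.56 CPM against 33.9 ± 5.97 in control (adjusted p = 0.242 by edgeR). It called 0 of the 18 between the overexpression groups, where Plcl2 had the lowest p by edgeR (log2 difference 0.47, adjusted p = 0.45).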

How the data were processed

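Raw counts by gene symbol for the 12 libraries were deposited by the authors in 1 table, with no normalization and with another column that gives gene length in bases. The submitters' processing notes name DESeq2, featureCounts, Subread 1.6.4, STAR 2.7.0f and Bowtie2 2.2.5, and the builds GRCm38 and mm10. What each tool did, which annotation was counted, and how strand and multi-mapping reads were handled is not given in the sources used here. Per the labels' protocols, libraries were TruSeq, paired-end of 75 bp. Sample titles gave groups and replicate numbers.

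The tests ran in R 4.3.3, with edgeR 4.0.16 as the main tool (filterByExpr, TMM, robust quasi-likelihood fit of all 12 libraries, Benjamini-Hochberg over the 15561 genes tested). DESeq2 1.42.0, limma 3.58.1 (voom), other scalings, no filter, smaller sets of libraries and a replicate block were alternatives. Levels are TMM-scaled CPM; permutation tests used log2 CPM with a prior count of 0.5. Functions were tested on simulated data. Positions and overlaps come from GENCODE M21 (GRCm38). No 2 libraries of a group were identical. The genes, lists and naming rule (the 10 receptors, Pgr, list genes past the threshold or up to 4 with the lowest p, and the 3 closest to Oxtr) were chosen with earlier results of these data known.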

Additional observations from a re-analysis of the deposited data

Results flagged for a closer look

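Each receptor gene was examined in each group for a library far from the other 3, 30 groups of 4 libraries in all. A library was singled out where its gap to the nearest other exceeded 0.829 of the group's range, Dixon's 95% critical value, which chance alone passes in about 1 group in 20, or 1.5 of the 30. This was so in 3 of the 30 groups. Oxtr in PGR-A OE replicate 4 was at 14.1 CPM, with a gap of 0.864 of the range. Avpr1a in the same library was at 0.705 CPM, below the other 3 of its group, with a gap of 0.901. Agtr1a in PGR-A OE replicate 3 was at 8.22 CPM, the lowest of its group, with a gap of 0.851.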

How the results depend on the processing

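The count of receptor genes called stayed at 0 in each comparison under every alternative run, except 1 (Adra1a) by DESeq2 in PGR-A OE. Chrm2 did not pass the low-count filter in the fit of the 8 libraries of PGR-B OE and PGR-A OE. Over all genes, against 102, 48 and 18 calls in the 3 comparisons, DESeq2 called 571 (292 higher, 279 lower), 217 and 124. A fit of only the libraries compared called 63 in PGR-A OE and 10 between the overexpression groups. Without replicate 4 of both PGR-A OE and control the counts were 91 in PGR-B OE and 38 between the overexpression groups. Leaving out 1 library gave 32 to 99, 22 to 48 and 11 to 31 calls. Those that moved a count by over 1.5 times were, in PGR-A OE, control 1 (32), control 2 (43), PGR-A OE 1 (44) and PGR-A OE 2 (56); in PGR-B OE, control 1 (24), control 2 (22) and PGR-B OE 4 (28); and between the overexpression groups PGR-A OE 1, PGR-A OE 2 or PGR-B OE 1 (11 each) and PGR-A OE 4 (31). The cause was not tested. With the replicate number as a block the counts were 69, 32 and 11, and no receptor call changed; same-numbered libraries did not deviate together (correlations of -0.244 to 0.175), so the numbers were not taken as pairs. The sign of 5 log2 changes that did not pass turned when 1 library was left out. Agtr1a in PGR-A OE ranged from -0.12 to 0.044 (0.043 without control 2, 0.044 without PGR-A OE 3). In PGR-B OE, Ednrb ranged from -0.048 to 0.14 (-0.048 without control 2, -0.045 without PGR-B OE 1), Htr2a from -0.31 to 0.035 (0.035 without control 2) and Ednra from -0.13 to 0.016 (0.016 without control 3 or PGR-B OE 3). Oxtr between the overexpression groups ranged from -0.63 to 0.25 (0.25 without PGR-A OE 4), and was 0.26 without PGR-A OE 4 and control 4 together. TMM scaling moved a library's CPM by a factor of 0.946 to 1.054. Chrm2, Adra1a and Avpr1a rest on few counts, which limits what could be detected for them.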
